A study of Mus musculus with 18 samples.

Results

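The cells described here are 549 barcodes of a 10x single-cell library from a mouse brain tumour, chosen because they hold transcripts of Gsx1, Rorb and 4 further genes. The library came from an untreated tumour of strain Boy/J mice, driven by HRasV12, a permanently active form of the growth-signalling GTPase Ras, together with dominant negative p53. The choice was made among barcodes with at least 5000 UMIs (unique molecular identifiers, each counting 1 captured transcript) and at most 20% mitochondrial transcripts. Barcodes with 3 or more of the immune genes Tyrobp, Fcer1g, C1qa, C1qb, Csf1r and Ptprc were set aside, and so were those with 3 or more of the division genes Mki67, Top2a and Aspm, which means all 3 of them. A barcode was a member when it held at least 2 of the set B genes Plppr1, Zfp57, Rorb, Gsx1, Dpysl4 and Pcdh15. It also had to hold more of these 6 than of the 6 genes of set A (Lcn2, Crispld2, Tagln, Mlc1, Slc4a4, Gfap), of set C (Otos, Trnp1, Matn4, Col20a1, Sema3d, Spock3) or of set D (Crabp2, Gal, Btc, Oaf, Dlk1, Nefm). The members are called the Gsx1/Rorb state below.

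Of 4384 barcodes, 1959 passed the limits on UMIs and mitochondrial transcripts, and 404 of those were immune and 190 dividing. The remaining 1365 are called tumour cells, although the rule leaves in a number of other cell types. The Gsx1/Rorb state made up 549 of them, or 40.2% (exact 95% binomial interval 37.6 to 42.9%). The other 816, called the remaining tumour cells, comprised 65 cells of a Gfap/Lcn2 state, 264 of a Matn4/Otos state, 122 of a Crabp2/Dlk1 state and 365 of no state, all defined by the same counting of sets. The study also deposited an untreated Drop-seq library of the same tumour type with 5000 barcodes, bulk RNA of 4 Ras tumours under the CSF1 receptor inhibitor PLX3397 and 4 under vehicle, and bulk RNA of 2 cultured Ras lines and 3 cultured PDGF lines. PLX3397 was given at 100 mg/kg daily by mouth from day 7 after implantation until the mice were moribund, and all of these Ras tumours carried the same pair of drivers. The vehicle tumours are titled as vehicle but carry the treatment label untreated, and all groups are labelled strain Boy/J. The Ras lines grew in medium with EGF and FGF and the PDGF lines in a different medium that also held PDGF ligands, so driver and medium cannot be told apart. The count labels of the PDGF lines name PDGFB. Each single-cell group is 1 library, so no test between cells was made, and every interval on cells covers counting error only. Whether the 10x and Drop-seq tumours came from 1 mouse was not stated.

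Gsx1 encodes a homeodomain transcription factor that patterns the ventral forebrain and spinal cord and is used by neural progenitors, and Rorb encodes the nuclear receptor RORβ, known for its part in retinal and layer-specific cortical neurons. Zfp57 is a zinc finger protein that keeps DNA methylation on imprinted loci, and Plppr1 is a membrane protein that promotes neurite outgrowth. Dpysl4 belongs to the collapsin response mediator proteins of growing axons, and Pcdh15 is a protocadherin best known from hair-cell tip links that is also transcribed in oligodendrocyte precursors. In GRCm38 the 6 genes lie on 6 chromosomes: Plppr1 at chr4:49059273-49340259, Zfp57 at chr17:37001163-37010635, Rorb at chr19:18930605-19111196, Gsx1 at chr5:147188696-147190947, Dpysl4 at chr7:139086001-139102704 and Pcdh15 at chr10:73099342-74649737. Rorb lies on the minus strand and the other 5 on the plus strand.

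The promoters of the 2 transcription factors that give the state its name are shown to set their sequence beside the way the 2 transcripts are distributed over the cells. Each window runs from 250 bases before to 50 bases after the start in RefSeq (GRCm38.p6), at chr5:147188446-147188745 on the plus strand for Gsx1 and chr19:19111147-19111446 on the minus strand for Rorb, written 5′ to 3′. Capitals mark matches to the GC box GGGCGG and to the E-box CANNTG, searched on both strands.
Gsx1: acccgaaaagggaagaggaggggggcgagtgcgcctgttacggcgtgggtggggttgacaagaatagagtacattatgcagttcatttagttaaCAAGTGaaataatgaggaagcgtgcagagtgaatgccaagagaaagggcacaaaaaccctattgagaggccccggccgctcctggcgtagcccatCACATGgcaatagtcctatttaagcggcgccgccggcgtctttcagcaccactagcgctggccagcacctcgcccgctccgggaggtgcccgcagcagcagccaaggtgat
Rorb: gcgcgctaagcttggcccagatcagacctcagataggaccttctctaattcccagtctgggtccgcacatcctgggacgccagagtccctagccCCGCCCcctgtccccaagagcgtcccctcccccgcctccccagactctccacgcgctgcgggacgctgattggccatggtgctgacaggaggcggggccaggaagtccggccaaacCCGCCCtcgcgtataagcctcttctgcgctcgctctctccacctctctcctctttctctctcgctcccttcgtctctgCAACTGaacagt
The Gsx1 window held 2 E-boxes and 0 GC boxes, and the Rorb window held 1 E-box and 2 GC boxes, both on the opposite strand. Of 32851 mouse promoter windows of this length, 72.31% held an E-box and 35.66% a GC box. The homeodomain core TAATTA, present in 5.291% of all windows, and the nuclear receptor half-site AGGTCA, present in 16.26%, matched none of the windows of the 5 set B genes that have one (Gsx1, Rorb, Plppr1, Zfp57 and Pcdh15). A match is only a match of letters.

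Because set B chose the members, the levels of its genes describe the choice and test nothing. Pcdh15 was the most abundant, with 335.6 CPM (UMIs of the gene per 1000000 UMIs of the pooled cells) in members and 186.9 CPM in the remaining tumour cells. Rorb had 158.8 CPM in members and 51.9 CPM in the remaining cells, and Gsx1 had 94.3 and 39.8 CPM in the same order. The 3 rarer genes were Zfp57 with 37.6 CPM in members against 14.1 CPM, Dpysl4 with 32.4 against 6.49 CPM, and Plppr1 with 20.4 against 6.22 CPM. Dpysl4 therefore showed the largest log2 ratio, 2.32, and Pcdh15 the smallest, 0.84.

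The other groups of barcodes differed from the members gene by gene. The Matn4/Otos state held Pcdh15 at 276.8 CPM and Gsx1 at 57.1 CPM but Rorb at only 19.6 CPM, the lowest Rorb level of any group. The Crabp2/Dlk1 and Gfap/Lcn2 states showed the opposite order, with Rorb at 77.4 and 59.8 CPM and Gsx1 at 3.29 and 3.90 CPM. Plppr1 had 0 UMIs in both of these states. Dividing barcodes, which the rule excluded, held all 6 genes, with Rorb at 91.0 CPM and Gsx1 at 61.1 CPM.

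**Figure D1:**
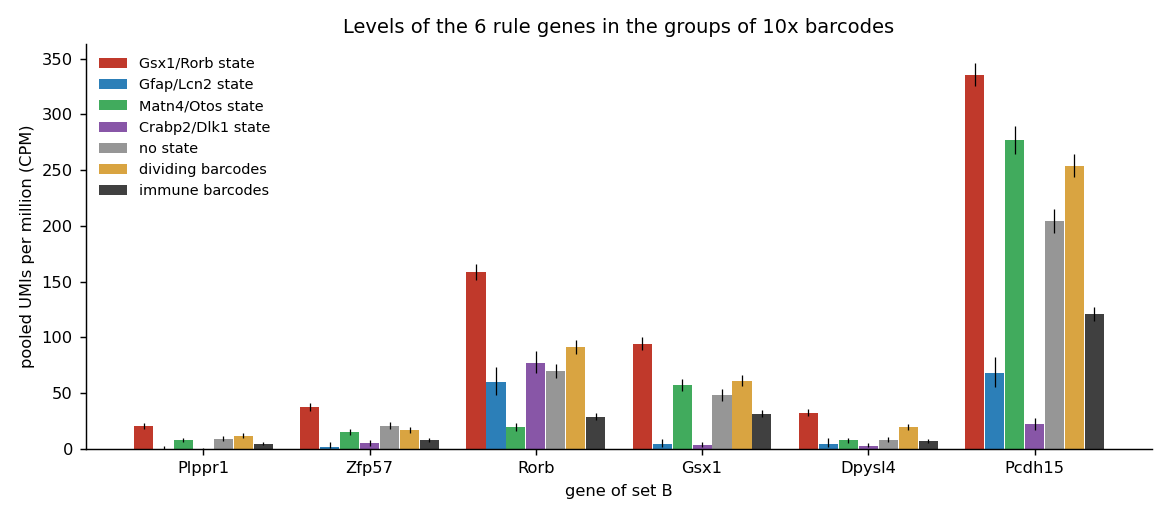
Pooled CPM (vertical axis) of the 6 set B genes (horizontal axis) in 7 groups of 10x barcodes; bars are pooled levels and lines exact 95% Poisson intervals. The Gsx1/Rorb state, chosen on these genes, has the tallest bar for each of them, and Rorb and Gsx1 differ in which other groups come next.

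Depth and free RNA bear on such counts. Members had a median of 19598 UMIs and 5006 genes per cell, and the remaining tumour cells 16821 UMIs and 4495.5 genes. With every cell thinned to 5000 UMIs, Rorb was detected in 34.1% of members, 13.1% of remaining cells and 7.18% of immune barcodes, which are not expected to make it. Gsx1 was detected in 37.2%, 12.7% and 6.93% of the same groups, and Pcdh15 in 75.2%, 42.2% and 16.8%. Without thinning the Rorb shares were 67.6% of members, 28.8% of remaining cells and 18.6% of immune barcodes. The thinned rule itself selected 422 tumour cells (30.9%, 28.5 to 33.4%), 70 of the 190 dividing barcodes (36.8%, 29.97 to 44.13%) and 25 of the 404 immune barcodes (6.19%).

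The members were not uniform in set B. Of the 549, 69 held exactly 2 of the genes, 171 held 3, 178 held 4, 102 held 5 and 29 held all 6. Gsx1 and Rorb were found together in 245 members (44.6%), Gsx1 without Rorb in 139 (25.3%), Rorb without Gsx1 in 126 (23.0%), and neither in 39 (7.10%). Only 73 members (13.3%) held no gene of sets A, C and D. Cells lay close to the limit on both sides: 161 members led the next set by 1 gene, and 175 tumour cells outside held at least 2 set B genes but tied with another set. Members with exactly 2 set B genes had Pcdh15 at 305.8 CPM, Rorb at 88.5 CPM and Gsx1 at 61.5 CPM, while the tied cells had 275.0, 90.3 and 69.5 CPM of the same genes. A further 222 cells held 2 or more set B genes with more of another set, 220 held 1, and 199 held 0.

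Each set B gene was also measured in cells that the rule chose with that gene left out, by at least 2 of the other 5 and more of them than of set A, C or D, with all cells thinned to 5000 UMIs. The 6 genes were picked to mark the state and the other sets took part in the choice, so these shares describe the rule and test no sharing beyond it. All 6 were detected more often in the chosen cells. Dpysl4 was found in 15.8% of cells chosen without it (12.3 to 19.8%) and 6.23% of the other cells (4.80 to 7.93%). Zfp57 was found in 19.1% against 9.66%, and Plppr1 in 9.21% (6.53 to 12.5%) against 4.83% (3.57 to 6.37%). Gsx1 was found in 31.9% of chosen cells against 19.8%, Pcdh15 in 78.4% against 51.7%, and Rorb in 27.0% (22.3 to 32.1%) against 19.8% (17.4 to 22.3%). The Rorb intervals meet almost end to end, and Rorb showed the smallest ratio of shares. Without the cells of other types, described below with the wider transcriptome, the intervals overlapped for Rorb (21.9 to 31.7% against 18.8 to 24.2%) and for Plppr1 (6.36 to 12.3% against 3.95 to 7.08%). Without thinning all 6 were again higher, with Rorb in 61.4% of chosen cells and 35.7% of the others.

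Rorb and Gsx1 are the 2 genes that name the state, and Gsx1 was detected in a similar share of cells with and without Rorb. Among all 1365 tumour cells thinned to 5000 UMIs, Gsx1 was detected in 62 of the 294 cells with Rorb (21.1%) and in 246 of the 1071 without it (23.0%). Dpysl4 went with both, at 13.9% of cells with Rorb against 7.56% without, and 13.6% of cells with Gsx1 against 7.57% without. Pcdh15 went with Gsx1, at 72.1% of cells with Gsx1 and 50.6% of those without. Beside Rorb the difference was smaller, at 60.5% of cells with Rorb and 54.1% without. Thinned cells in which a gene was missed are counted as without it.

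At the lower depth of 2000 UMIs the 2 libraries shared the direction of Rorb, Gsx1 and Pcdh15 and differed in that of Plppr1, Zfp57 and Dpysl4. In the 10x library 5 of the 6 genes were still higher in the chosen cells, but Rorb was found in 8.80% of chosen cells (4.48 to 15.2%) and 12.6% of the others (10.8 to 14.6%). In the Drop-seq library thinned to the same 2000 UMIs only Gsx1 and Pcdh15 were higher, Gsx1 in 12.6% of chosen cells (7.51 to 19.4%) and 10.8% of the others (9.18 to 12.7%). Pcdh15 was found in 38.0% of chosen Drop-seq cells (24.7 to 52.8%) and 30.5% of the others (28.0 to 33.0%). Plppr1, Zfp57, Rorb and Dpysl4 were found in a lower share of the chosen Drop-seq cells than of the others. The intervals overlapped for all 6 genes in both libraries at 2000 UMIs, so no difference was detected there.

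**Figure D2:**
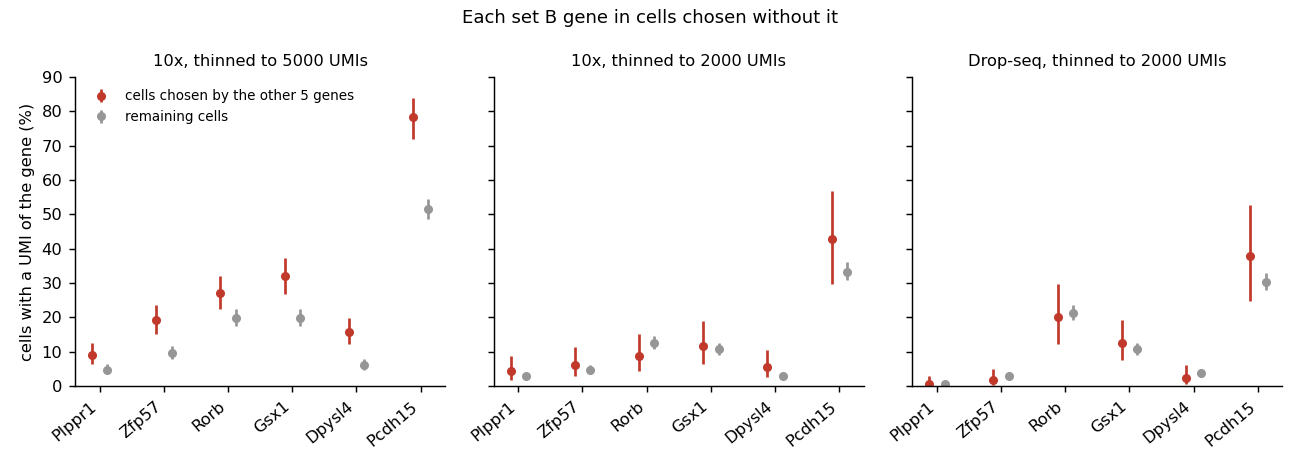
Share of cells with a UMI of each set B gene (vertical axis, percent) in cells chosen by the rule without that gene and in the other tumour cells, for the 10x library at 5000 and at 2000 UMIs per cell and the Drop-seq library at 2000; lines are exact 95% binomial intervals. At 5000 UMIs the chosen cells are higher for all 6 genes, and at 2000 UMIs the intervals overlap for all 6.

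The wider transcriptome of the members was compared with that of the remaining tumour cells as a description. Of 12620 genes with at least 50 UMIs over both groups, 165 (1.31%) were at least 2-fold higher in members and 1122 (8.89%) at least 2-fold lower, and 55.7% had a log2 ratio above 0. The median log2 ratio was 0.05. Lower genes thus outnumbered higher ones. Part of the contrast coincides with other cell types among the remaining cells: 6 of 549 members (1.09%) and 112 of 816 remaining cells (13.7%) held 3 or more erythroid, endothelial or pericyte genes. Without those cells 137 of 12197 genes (1.12%) were higher and 705 (5.78%) lower, and 55.5% were above 0. Against the 3 other states alone, 239 of 12197 genes (1.96%) were higher and 1065 (8.73%) lower, and 54.1% were above 0.

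Among genes other than the rule genes that were detected in at least 10% of thinned members, the highest ratio belonged to H19, an imprinted long non-coding RNA expressed from the maternal allele, with 31.7 CPM in members and 7.24 CPM in remaining cells (log2 ratio 2.13, 95% counting interval 1.84 to 2.42). The ratio remained 1.93 without the cells of other types. Ntng1, a netrin-like synaptic adhesion protein, followed at 34.1 against 11.8 CPM, and Elavl2, a neuronal RNA-binding protein, at 31.2 against 12.4 CPM. The zinc finger factor Sall3 was more abundant, at 188.3 against 76.5 CPM, and was detected in 53.7% of thinned members and 22.9% of thinned remaining cells. Sox11, a transcription factor of immature neurons and progenitors, reached 841.2 CPM in members and 409.1 CPM in remaining cells. Bex2 (407.7 against 195.7 CPM), Phlda1 of the MAPK list (947.2 against 459.2 CPM) and Moxd1, a monooxygenase homologue (336.1 against 156.0 CPM), were also about 2-fold higher. Rfx4 and Rfx3, transcription factors of ciliated cells and neural patterning, had log2 ratios of 1.17 and 1.02. The matrix protein Tenascin-C, from Tnc, had 228.0 CPM in members and 107.1 CPM in the others. All of these were lower in the Gfap/Lcn2, Matn4/Otos and Crabp2/Dlk1 states than in members, and so were the other genes among the 25 with the largest ratios except Klf4, which had 72.0 CPM in members and 109.9 CPM in the Crabp2/Dlk1 state.

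Of the same 25 genes, Chaf1b, Clspn, Prim1, Atad5, Timeless, Cdc25a and Mcm5 are known to act in replication, chromatin assembly or the S-phase checkpoint, a grouping made after their names were seen, and only Mcm5 of them is in the list of replication genes. Prim1, the catalytic subunit of DNA primase, had 56.4 CPM in members and 24.4 CPM in remaining cells. In that list all 12 genes had a log2 ratio above 0 and 3 were at least 2-fold higher, namely Rrm2 (30.1 CPM in members against 9.93 CPM), Cdc6 (7.83 against 2.84 CPM) and Mcm5 (39.1 against 19.3 CPM), with a median of 0.58. Of 10 mitosis genes 9 were above 0, with a median of 0.42 and Kif11 at 1.15. Residual division genes moved the same way: Mki67, which the rule limits but does not bar, had 27.2 CPM in members, 11.2 CPM in remaining cells and 425.8 CPM in dividing barcodes. With cells holding any of the 3 division genes left out, Mcm5 had a log2 ratio of 0.62, Rrm2 0.64 and Clspn 1.02. With the rule applied to thinned cells, Rrm2 had 0.43 and Kif11 -0.16.

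The members' identity was set against lists of cell type genes, which did not single out a progenitor programme. Of 14 neural progenitor genes 8 had a ratio above 0 and only Sox11 was at least 2-fold higher, while Id3 (83.2 CPM in members against 172.3 CPM) and Egfr (2.02 against 4.08 CPM) were at least 2-fold lower, and the median was 0.11. The label of a progenitor-like state is therefore not carried by these genes at 2-fold, and the cells are named here by their leading rule genes. Sox2 and Nes, chosen after their values were seen, had 247.4 and 334.6 CPM in members and 183.3 and 355.8 CPM in remaining cells. Oligodendrocyte precursor genes leaned to the members without any passing 2-fold: 11 of 15 were above 0, with a median of 0.50. Olig2, the transcription factor of the oligodendrocyte lineage, had 480.8 CPM in members and 277.1 CPM in remaining cells, and Ptprz1, a receptor phosphatase of precursors, 1306 and 829.6 CPM. Gpr17 (8.71 against 4.56 CPM) and Nkx2-2 (31.1 against 18.9 CPM) went the same way. The Matn4/Otos state was not below the members here: the 16 listed genes summed to 5396 CPM in members and 5805 CPM in that state.

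The ganglionic eminence is the ventral forebrain zone in which Gsx1 and its paralogue Gsx2 act. Only 4 of the 15 genes listed for it had enough UMIs to compare. Of these 3 were above 0, with a median of 0.69. Sp9, a zinc finger factor of that zone, had 15.7 CPM in members and 1.18 CPM in remaining cells, a log2 ratio of 3.74 (3.097 to 4.444), and was found in 15.7% of members and 1.59% of remaining cells without thinning. In the Drop-seq library Sp9 went the other way on few counts, with 6 UMIs in members and 38 in the remaining cells (3.99 and 10.9 CPM, log2 ratio -1.44, -2.98 to -0.19). Gsx2 had 30 UMIs in members and 23 in remaining cells (2.42 and 1.23 CPM). Of the others, named after their values were seen, Dlx1 had 1 UMI in members and 1 in remaining cells and Dlx2 had 0 and 1, so these defining genes of ganglionic eminence progenitors were at or near 0. Of 6 listed genes of the zone no UMI was found in members.

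Differentiated glial and mesenchymal genes were lower in the members than in the remaining cells as a whole. Of 8 myelin and oligodendrocyte genes 5 were at least 2-fold lower, with a median of -1.73. Mag, a myelin adhesion protein, had 0.32 CPM in members and 11.4 CPM in remaining cells. The remaining cells included a cluster of 8 cells, none of them members, led by Mog, Mag, Mal, Mobp and Ermn at a resolution of 1, which the limit on other cell types does not remove. Against the 3 other states alone 1 of 6 comparable genes of the list was at least 2-fold lower, with a median of -0.52. Of 8 astrocyte genes 4 were at least 2-fold lower, among them S100b (97.7 against 322.3 CPM) and Clu (92.9 against 251.1 CPM). The Crabp2/Dlk1 state was no higher than the members in either list. The 12 listed astrocyte genes summed to 672.6 CPM in members and 638.9, 1699 and 1978 CPM in the Crabp2/Dlk1, Matn4/Otos and Gfap/Lcn2 states. The 8 oligodendrocyte genes summed to 590.5 CPM in members and 137.4, 1095 and 735.5 CPM in the same states. Of 13 genes of the mesenchymal glioma list 9 were at least 2-fold lower and 1, Tnc, at least 2-fold higher, with a median of -1.70. S100a6 had 49.4 CPM in members and 618.8 CPM in remaining cells, Timp1 139.2 and 779.1 CPM, and Fn1 39.9 and 296.7 CPM. Without the cells of other types 7 of the 13 were still at least 2-fold lower, and the S100a6 log2 ratio was -4.10. The 13 detected genes of the list summed to 1367 CPM in members, 1105 CPM in the Matn4/Otos state, 3044 CPM in the Gfap/Lcn2 state and 10198 CPM in the Crabp2/Dlk1 state, so the Matn4/Otos state was no higher than the members.

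Signals to immune cells were also lower in the members than in the remaining cells as a whole, with the highest tumour levels in the Crabp2/Dlk1 state. Of 11 macrophage-recruiting ligands none was above 0 and 8 were at least 2-fold lower, with a median of -1.54. Spp1, osteopontin, had 43.3 CPM in members, 664.7 CPM in remaining cells and 5633 CPM in immune barcodes. Among the remaining cells it had 49.9 CPM in the Matn4/Otos state and 3270 CPM in the Crabp2/Dlk1 state. The 16 listed ligands summed to 131.2 CPM in members, 177.2 CPM in the Matn4/Otos state and 3629 CPM in the Crabp2/Dlk1 state. Ccl2, the monocyte chemokine, had 12 UMIs in members and 191 in remaining cells. The ligands of the CSF1 receptor, the target of PLX3397, were also measured, chosen after their values were seen: Csf1 had 10.3 CPM in members and 19.4 CPM in remaining cells, and Il34 2.02 and 5.96 CPM. Of 9 compared myeloid genes 4 were at least 2-fold lower and 1 was above 0, and all 12 listed summed to 86.1 CPM in members and 211.4 CPM in remaining cells, so the part of myeloid RNA in the Spp1 and Ccl2 ratios was not tested. Of 8 MHC class I genes none was above 0, and H2-K1 had 43.7 against 119.6 CPM. Of 10 interferon response genes 5 were at least 2-fold lower, with Bst2 at 19.6 against 87.0 CPM, and 2 of 10 without the cells of other types. The interferon list summed to 196.0 CPM in members, 175.3 CPM in the Matn4/Otos state and 1153 CPM in the Crabp2/Dlk1 state.

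The other lists showed smaller or mixed differences. Of 10 immediate early genes 7 were above 0, with a median of 0.58, and Fos had 1013 CPM in members and 556.3 CPM in remaining cells. Of 11 hypoxia and glycolysis genes none was above 0 and 3 were at least 2-fold lower, with Slc2a1, the glucose transporter GLUT1, at 29.4 against 124.0 CPM. Of 13 MAPK feedback genes 7 were above 0 and the median was 0.04, with Spry1 at 266.0 against 191.9 CPM and Dusp5 at 6.62 against 29.2 CPM. Of 18 imprinted genes 10 were above 0, 2 (H19 and Usp29) at least 2-fold higher and 3 at least 2-fold lower, among them Cdkn1c at 0.48 against 6.76 CPM. Without the cells of other types 0 of 16 comparable imprinted genes were at least 2-fold lower. Relatives of the set B genes showed a median of 0.04 over 15 genes, none past 2-fold, with Plppr4 at 12.9 against 23.5 CPM and Plppr3 at 21.4 against 12.1 CPM. Hras and Trp53, the genes of the 2 drivers, named outside the rule for named genes, had 122.9 and 147.6 CPM in members and 140.1 and 136.0 CPM in remaining cells, but the counts do not separate transgene from endogenous transcripts.

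The summed markers of other cell types were lower in members than in the remaining cells as a whole, but not than in every state. The 6 erythroid genes summed to 452.7 CPM in members and 12823 CPM in remaining cells, the 8 endothelial genes to 25.2 and 419.5 CPM, and the 10 pericyte and fibroblast genes to 79.6 and 339.9 CPM. In the Crabp2/Dlk1, Matn4/Otos and Gfap/Lcn2 states and in cells of no state, the erythroid sums were 240.1, 1232, 58.5 and 33281 CPM. The endothelial sums were 1135, 67.1, 481.9 and 408.3 CPM in the same order. Those of pericyte and fibroblast genes were 1702, 16.2, 22.8 and 71.0 CPM. Of the 15 genes with the smallest ratios among those detected in at least 10% of thinned remaining cells, Hbb-bs at -4.79 is a haemoglobin gene and had a log2 ratio of 0.12 once the cells of other types were left out. The other 14 stayed lower, among them Tgfb1 at -3.32, Fbln2 at -3.69, Areg at -3.50 and Lgals3 at -3.06 without those cells. The Matn4/Otos state was close to the members for Tgfb1 (3.36 CPM against 3.39 CPM in members), Areg (9.63 against 8.95 CPM) and Lgals3 (27.6 against 26.9 CPM). Fbln2 was higher there, at 20.7 CPM against 5.16 CPM in members. The Crabp2/Dlk1 state had 233.9, 241.6, 387.1 and 764.0 CPM of Tgfb1, Fbln2, Areg and Lgals3.

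**Figure D3:**
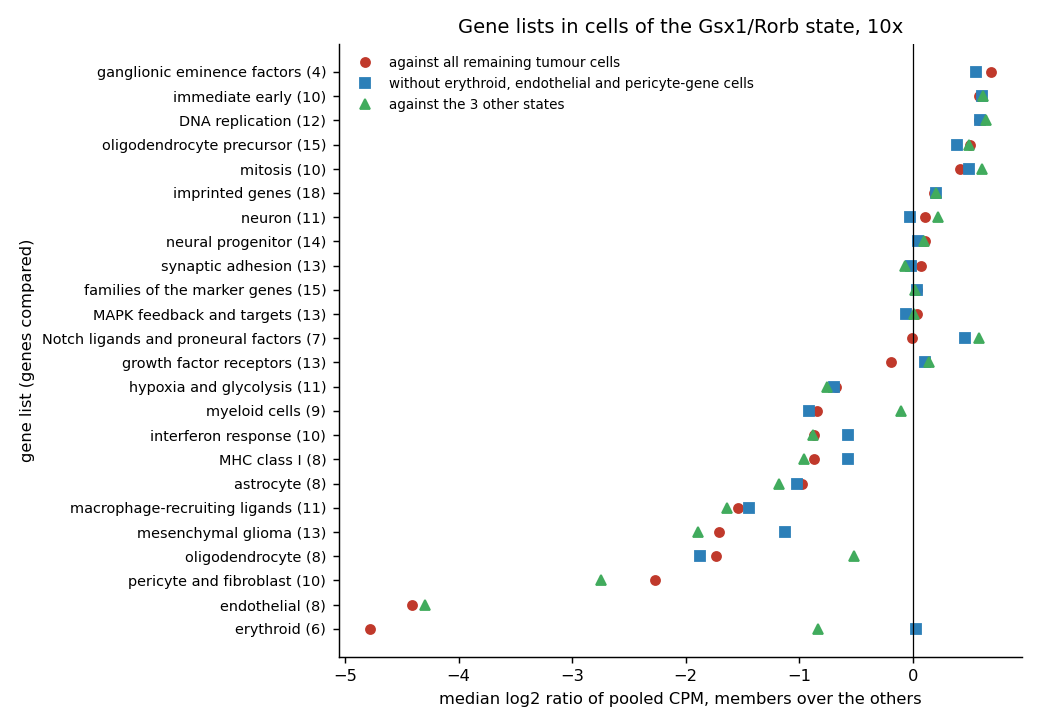
Median log2 ratio of pooled CPM (horizontal axis), members over 3 choices of other cells (symbols), for each gene list (vertical axis, with the number of genes compared against all remaining tumour cells). Replication, immediate early and oligodendrocyte precursor lists lie right of 0, macrophage-recruiting ligands and mesenchymal genes left of it, and the erythroid list moves to about 0 without the cells of other types.

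Clusters built without the 24 rule genes and the 9 immune and division genes showed where the members lie. At a resolution of 0.5, 3 of 9 clusters held a majority of members, and together these took 62.5% of all members. Cluster 2 was 202 of 241 cells members (83.8%) and was led by genes such as Dmrtb1, Stxbp5l, H19 and Dll1. Cluster 6 held 53 members of 70 cells (75.7%) and was led by replication and mitosis genes (Ccne2, Rrm2, Brca1, Cdc6). Cluster 4 held 88 members of 171 (51.5%), led by Ptx3, Prelp, Agt and Coch. Members made up 3 of 192 cells in the cluster led by Klk6, Nppb and Spp1 and 0 of 44 cells in the erythroid gene cluster. The clusters were given no cell type names.

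Rorb and Gsx1 were spread differently over these clusters. Among members, Rorb had 408.3 CPM in cluster 4, 137.7 CPM in cluster 2 and 122.2 CPM in cluster 6, but 43.9 and 38.9 CPM in clusters 1 and 0. Gsx1 was lower in cluster 4, at 63.5 CPM, than in clusters 2, 6, 1 and 0, at 109.1, 96.6, 105.9 and 116.8 CPM. The 42 members in cluster 5 had Gsx1 as low as in cluster 4, at 64.3 CPM, with Rorb at only 98.5 CPM. Tnc was also highest in cluster 4, at 608.6 CPM, but had 177.0 CPM in cluster 1, where Rorb was low, and 92.2 CPM in cluster 2. H19 was at 7.14 CPM in cluster 4 and 63.7 CPM in cluster 2. The replication gene Mcm5 had 172.1 CPM in cluster 6 and 33.6 CPM or less in the other 5 clusters that hold over 40 members. At a resolution of 1, the 67 members of a cluster led by Reln, Coch and Sp9 (87.0% of its cells) had Rorb at 462.3 CPM, Gsx1 at 61.1 CPM and Tnc at 653.7 CPM.

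Members with Gsx1 and no Rorb and members with Rorb and no Gsx1, compared after the data had been seen, differed in further genes. Of 9135 genes compared, 124 (1.36%) were at least 2-fold higher in the 139 Gsx1-only members and 188 (2.06%) at least 2-fold lower than in the 126 Rorb-only members. Their depths were close, with medians of 18458 UMIs in Gsx1-only and 19275.5 UMIs in Rorb-only members. Higher with Gsx1 were Matn4, a matrilin and a set C gene, at 84.9 CPM in Gsx1-only and 19.2 CPM in Rorb-only members, and C1ql1, a synaptic C1q-related protein, at 38.3 and 10.1 CPM. Higher with Rorb were Gja1, connexin 43, at 0.76 CPM in Gsx1-only and 30.8 CPM in Rorb-only members, Id1 at 2.27 and 29.3 CPM, and Hopx at 1.89 and 17.0 CPM. The set D gene Dlk1, a Notch-like membrane protein, had 14.0 CPM in Gsx1-only and 94.1 CPM in Rorb-only members.

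The same rule was applied to the Drop-seq library. It uses barcodes of 12 rather than 16 bases, so its cell barcodes cannot be matched to those of the 10x library. Its median was 1384.5 UMIs per barcode, so the UMI minimum was lowered to 2000. Then 358 of 1409 tumour cells (25.4%, 23.2 to 27.8%) were members, with a median of 3468 UMIs in members and 2851 in the others. At an equal thinned depth of 2000 UMIs the shares were 13.3% (11.6 to 15.2%) in Drop-seq and 13.2% (11.4 to 15.1%) in 10x. At 5000 UMIs they were 34.7% (28.1 to 41.7%) of 199 Drop-seq cells and 30.9% (28.5 to 33.4%) of 1365 10x cells. The intervals of the 2 libraries overlapped at both depths.

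The genes named from the 10x library had smaller ratios in Drop-seq. Of 23 comparable genes among the 25 higher ones, 17 had a ratio above 0 and 0 reached 2-fold, with a median of 0.14, where 51.5% of all 9736 genes were above 0, 0.236% were 2-fold higher and the median was 0.01. Atad5 had 77.9 CPM in Drop-seq members and 52.3 CPM in the remaining cells (log2 ratio 0.57, 0.23 to 0.92), Clspn 94.5 and 66.9 CPM, and Sall3 162.4 and 128.9 CPM. Tnc went the other way, with 153.0 CPM in members and 217.5 CPM in remaining cells, and H19 and Ntng1 had ratios of -0.23 and -0.73 with intervals that include 0. All 12 replication genes were above 0, with a median of 0.39, and 10 of 13 oligodendrocyte precursor genes, with a median of 0.16. Of the 15 lower genes 12 could be compared, and all 12 were below 0, 9 by at least 2-fold, where 1.51% of all genes were 2-fold lower. Spp1 had 10.6 CPM in Drop-seq members and 76.6 CPM in remaining cells, and S100a6 28.6 and 135.7 CPM. Endothelial and pericyte genes were lower there too (all 3 and all 4 compared by at least 2-fold), and their part in these ratios was not tested.

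**Figure D4:**
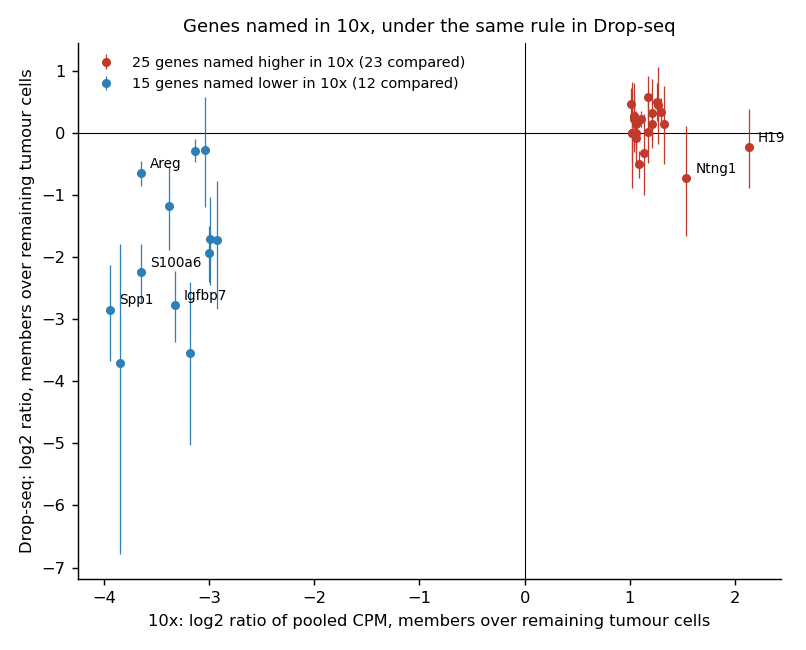
Log2 ratio of pooled CPM, members over remaining tumour cells, in the 10x library (horizontal axis) and the Drop-seq library (vertical axis, with 95% counting intervals) for the genes named higher and lower from the 10x library. The 12 lower genes lie below 0 in both libraries, and the 23 higher genes lie between -0.73 and 0.57 in Drop-seq.

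In bulk Ras tumours, which the rule did not use, the set B genes were tested between PLX3397 and vehicle with edgeR's quasi-likelihood test. None of 18366 genes passed an adjusted p of 0.05 (0%), 648 (3.53%) had an unadjusted p under 0.05, and DESeq2 called 178. In whole tissue, fewer cells of a type and less RNA per cell cannot be told apart. Csf1r averaged 86.3 ± 65.4 CPM under PLX3397 and 250.4 ± 63.8 CPM under vehicle (SD, n = 4 each), with an edgeR log2 fold of -1.52 and an adjusted p of 0.9998, and all 12 myeloid genes had a fold below 0, against a median of 0.00 over all genes. Library totals lay between 31.2 and 35.8 M counts, with M for 1000000.

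Rorb had 43.5, 49.2, 62.1 and 63.3 CPM in the 4 PLX3397 tumours, against 41.2, 42.1, 38.8 and 33.9 CPM in the 4 vehicle tumours. Every PLX3397 tumour lay above every vehicle tumour. The edgeR log2 fold was 0.48 (SE 0.15), with an adjusted p of 0.791, so Rorb did not pass the test, and the alternatives gave adjusted p-values of 0.311 to 1. Libraries that do not overlap were found for 2.59% of all genes tested.

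The other set B genes varied more within groups than between them. Pcdh15 had 12.1, 2.70, 1.88 and 5.98 CPM under PLX3397 and 3.11, 6.001, 12.2 and 0.27 CPM under vehicle. Dpysl4 had 25.4, 7.44, 2.37 and 4.46 CPM under PLX3397 and 4.95, 14.8, 10.2 and 0.068 CPM under vehicle. For both genes the ranges of the 2 groups overlapped, with the lowest library under vehicle. Zfp57 ranged from 3.97 to 8.96 CPM under PLX3397 and 1.97 to 5.92 CPM under vehicle, and Plppr1 from 0.65 to 5.61 and 0.10 to 3.69 CPM. Their edgeR adjusted p-values were 0.9998. Vehicle replicate 4 was the lowest of the 8 libraries in all 5 tested set B genes, and it was the lowest in 25.3% of all genes. Gsx1 was left out of the test for low counts, with 0 to 8 counts under PLX3397 and 0 to 15 under vehicle.

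Gsx1 was thus at 0 to 0.45 CPM in the bulk tumours and at 94.3 CPM in the 10x members and 39.8 CPM in the remaining 10x cells. Pcdh15 was at 0.27 to 12.2 CPM in bulk and at 335.6 and 186.9 CPM in the same 10x groups, while Rorb was at 33.9 to 63.3 CPM in bulk and at 158.8 and 51.9 CPM in 10x. Bulk counts rise with transcript length and 10x counts do not, and the tumours differ, so these levels are set side by side without a comparison. Of the 25 genes named higher in the 10x members, 10 had a fold above 0 under PLX3397, with a median log2 fold of -0.04, and none passed. Sall3 averaged 47.6 CPM under PLX3397 and 48.5 CPM under vehicle.

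Among cultured lines, Rorb and the other 5 genes stood on opposite sides. Rorb had 52.2 and 54.0 CPM in the 2 Ras lines, against 17.4, 10.0 and 14.1 CPM in the 3 PDGF lines. Both Ras lines lay above all PDGF lines, with an edgeR log2 fold of 1.94 (SE 0.28) and an adjusted p of 0.204. Gsx1 had 0.090 and 2.99 CPM in the Ras lines, against 53.5, 7.27 and 76.9 CPM in the PDGF lines, all higher, with a log2 fold of -4.89 (SE 1.83) and an adjusted p of 0.299 by edgeR. Neither passed the test. No gene of 17475 did (0%), although 2842 (16.3%) had an unadjusted p under 0.05. DESeq2 called 2035 genes, among them Rorb with an adjusted p of 5.78e-06 and Gsx1 with 0.0094. Over all alternatives the log2 fold of Rorb was 1.77 to 2.14 with adjusted p-values up to 0.684, and that of Gsx1 -8.94 to -3.93 with adjusted p-values up to 0.91.

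The remaining set B genes followed Gsx1. Pcdh15 had 3.32 and 185.1 CPM in the Ras lines and 341.5, 331.7 and 431.1 CPM in the PDGF lines. Plppr1 had 0.66 and 24.7 CPM in the Ras lines and 119.9, 53.9 and 137.1 CPM in the PDGF lines. Both Ras lines were below all PDGF lines for these genes, and the 2 Ras lines differed widely from each other. Zfp57 had 0.54 and 16.4 CPM in the Ras lines and 22.2 to 40.0 CPM in the PDGF lines, and Dpysl4 1.96 and 23.0 CPM and 36.8 to 39.9 CPM. Libraries of the 2 groups did not overlap for any of the 6 genes, against 38.4% of all genes, and 5 of the 6 were lower in the Ras lines, against 20.4% of all genes that were lower without overlap. Ras line 1 was the lowest of the 5 libraries in 5 of the 6 genes and in 32.8% of all genes, and the highest in 30.4% of all genes. With Ras line 2 left out, Ras line 1 stood alone and was assumed to vary like the PDGF lines. The edgeR log2 folds were then 1.895 for Rorb, -7.30 for Plppr1, -5.95 for Zfp57, -4.31 for Dpysl4 and -6.82 for Pcdh15. That fit has no replicate in the Ras group, so no calls are given from it.

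Lists related to the state also differed between the lines in direction. None of 16 oligodendrocyte precursor genes had a fold above 0 in Ras over PDGF lines, with a median log2 fold of -2.25, and all 13 tested mesenchymal genes had one, with a median of 3.87, where the median of all genes was 0.01. No gene of either list passed edgeR's test. Of the 25 genes named higher in the 10x members 14 were above 0, with a median of 0.02.

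**Figure D5:**
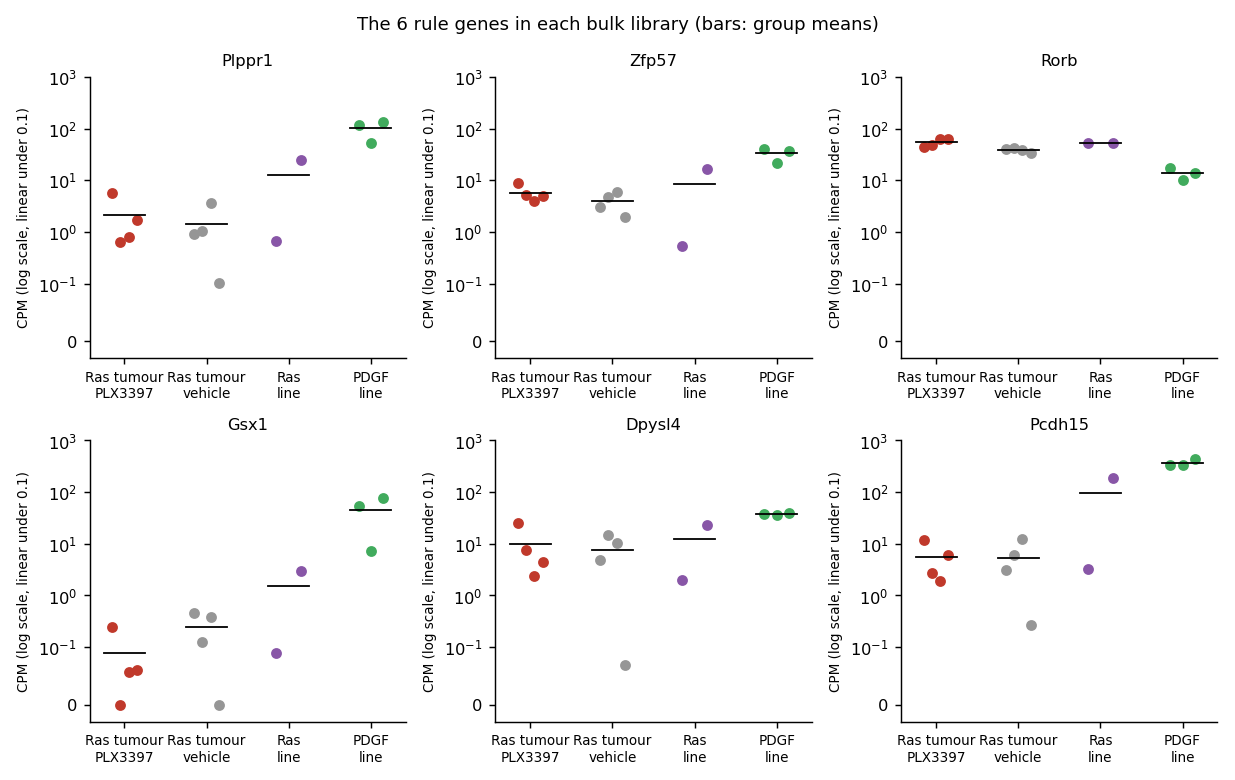
CPM of each set B gene (vertical axis, log scale that is linear under 0.1) in every bulk library of Ras tumours under PLX3397 and vehicle and of cultured Ras and PDGF lines; points are libraries and bars group means. Rorb is the only gene higher in the Ras lines than the PDGF lines, and vehicle replicate 4 (rightmost grey point) has the lowest tumour value in each of the 5 tested genes.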

How the data were processed

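The authors deposited UMI counts per gene and barcode for the 10x and Drop-seq libraries, as whole-number counts, and bulk count tables. Per the submitters' processing notes, tools included Cell Ranger, STAR 2.6.1e, featureCounts 1.6.2, Trim Galore 0.4.2, cutadapt 1.9.1 and FastQC 0.11.7, with GRCm38. Which tool made which table is not given in the sources used here. Of the small bulk counts (1 to 10), 62.8 to 69.4% were even; the cause was not tested.

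The 10x library held 59.3 M UMIs (M, 1000000) and Drop-seq 9.67 M. CPM were pooled per group with exact Poisson intervals, and shares carry exact Clopper-Pearson 95% intervals. PCR copies are collapsed by UMIs there but not in bulk. Repeated symbols (67) were summed. No doublet caller was run. Clusters came from scanpy 1.11.5 (2000 variable genes, 30 components, 15 neighbours, Leiden). Bulk counts were tested with edgeR 4.0.16 (R 4.3.3) after filterByExpr and TMM, with Benjamini-Hochberg adjustment, and DESeq2 1.42.0 as an alternative. Nothing stated whether lines or tumours were separate cultures or litters, so p-values measure the spread between these samples. In each bulk file, 27 entries with date names (at most 0.281% and 0.36% of a library) were left out, as were 5 columns of the line table that match no sample. CD11b libraries were not analysed here. In data simulated for the line comparison, edgeR recovered 16 of 66 genes changed 8-fold among 17475, and for the PLX3397 comparison 50 of 66 among 18366. Of genes changed 4-fold it recovered 3 of 67 for the lines and 39 of 67 for PLX3397. Of genes changed 2-fold it recovered 0 of 67 for the lines and 4 of 67 for PLX3397.

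Named genes are set B, the 25 genes with the largest and 15 with the smallest ratio among genes in at least 10% of thinned members or of thinned remaining cells, and up to 4 per list. The members and lists were chosen with earlier results of these data known.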

Additional observations from a re-analysis of the deposited data

Results flagged for a closer look

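Elavl2, one of the genes named higher in the 10x members, had 24.7 CPM in PLX3397 tumour replicate 1 and 9.30 to 11.1 CPM in the other 3 PLX3397 tumours. Its gap to the nearest tumour was 0.885 of the group's range. Chance gives a gap large enough to be flagged in about 1 in 20 groups of 4. Of 32 such groups examined this was the only one flagged, which is no more than chance would give. PLX3397 replicate 1 was also the highest of the bulk Ras tumours in 27.7% of all genes and in 3 of the 5 tested set B genes. It was the lowest in 22.9% of all genes and in 0 of those 5. The cause was not tested.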

How the results depend on the processing

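Of 116 genes named from the 10x library past 2-fold, 111 kept the direction of their ratio under every alternative run on cells. Those that turned were Hbb-bs, Hba-a2 and Hba-a1 at a minimum of 10000 UMIs (log2 ratios 3.95, 3.70 and 3.82), Kif11 with the rule on thinned cells (-0.16), and Hbb-bs, Mmp9, Hba-a2 and Hba-a1 without the cells of other types (0.12, 0.26, 0.032 and 0.36), a setting added after the data had been seen. The genes at least 2-fold higher numbered 79 with the rule on thinned cells and 73 with at least 200 UMIs, which compares fewer genes. Those at least 2-fold lower numbered 638 in cells with none of the immune genes, 543 with at least 200 UMIs and 705 without the cells of other types. Members numbered 284 with none of the immune genes and 308 with none of the division genes, by construction fewer cells. The Drop-seq share was 15.8% at 1000 UMIs and 45.2% at 5000, where 10 of 14 comparable named genes were above 0. Majority clusters held 66.7% of members at a resolution of 1. A second random thinning shared 19 of the 25 higher and 14 of the 15 lower named genes. DESeq2 called 178 genes for PLX3397 and 2035 for the lines, against 0 by edgeR, and edgeR without a filter called 1 in each. Leaving out 1 library at a time gave 0 to 0 calls for PLX3397 and 0 to 2111 for the lines. With the replicate number as a block, edgeR called 0 genes in either comparison. Same-numbered tumours had correlations of deviations of 0.114, 0.132, -0.42 and 0.449, and differently numbered tumours -0.727 to 0.591. So few correlations cannot settle whether the numbers pair the tumours. The causes were not tested.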
